A study of Saccharomyces cerevisiae with 4 samples.

Results

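Domain VI lies near the 3′ end of the 25S rRNA of the large ribosomal subunit, and the stretch described here runs from the nucleotide before helix 94 to just past the 5′ strand of helix 99. It comprised nucleotides 2996 to 3300 of RDN25-2, which is 305 of the 3396 nucleotides of 25S and 83 of its 869 uridines, and was chosen by position in 25S. The deposited 35S pre-rRNA held 6858 nucleotides in all. 25S is encoded on chromosome XII, where the S. cerevisiae annotation lists 2 copies, RDN25-1 and RDN25-2, and reads were assigned to 1 of them, so that the copies cannot be told apart.

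Dbp7 is a DExD-box RNA helicase that acts in the early assembly of the large subunit. Dbp7-HTP cells were BY4741 yeast carrying Dbp7 with a C-terminal His-Tev-ProtA tag at its genomic locus, and WT cells were BY4741 with no tagged protein. Both strains were grown in low uracil medium with 4-thiouracil and cross-linked with light at 365 nm. The WT libraries thus give the background of RNA that is recovered without a bait. There were 4 libraries, Dbp7-HTP replicates 1 and 2 and WT replicates 1 and 2, and no label states whether replicates came from separate cultures. In PAR-CRAC, the thiolated uridine that was cross-linked to protein is read as C instead of T in the cDNA, and only reads with such a change were retained.

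In the mature ribosome, helix 94 is the stem at the root of this part of domain VI and helices 95, 96 and 97 are the hairpins that it encloses. Helix 95 carries the sarcin-ricin loop, the target of the toxins ricin and α-sarcin and a contact site of translational GTPases. Helix 98 follows after a short single-stranded linker, and in eukaryotes an expansion segment is inserted between its strands. In pre-ribosomal particles these elements need not yet be folded as in the mature subunit, and the names are used here to mark positions.

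The sequences that carry the results, read from the deposited 35S tables and written 5′ to 3′ as RNA, are the strands of helix 94 and helix 98, the linker between them and the beginning of helix 99, together with the loop of helix 95 and the 5′ part of the expansion, where the libraries behaved differently. Capitals mark the uridines in the 5′ strands of helices 94 and 98 and in the expansion, the loop motif in helix 95, the linker in the third line and the helix 99 strand in the fifth.
helix 94, 5′ strand (2997 to 3010): gUUaccgcaaUagU
helix 95 hairpin (3011 to 3042): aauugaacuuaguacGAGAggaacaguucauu
helix 94, 3′ strand with the linker (3136 to 3158): gcuagaacgcggugauUUCUUUG
helix 98, 5′ strand (3159 to 3171): cUccacacaaUaU
helix 98, 3′ strand with helix 99 5′ strand (3279 to 3298): auuuugcguggggAUAAAUC
expansion, 5′ part (3172 to 3207): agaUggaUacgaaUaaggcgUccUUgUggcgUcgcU
Aligned in antiparallel orientation, 12 chosen positions of helix 94 gave 9 Watson-Crick and 3 G-U pairs. Its strands have 14 and 16 nucleotides, and those between the chosen positions were left out, so mismatches there were not counted. Helix 98 was aligned in full, and its 13 positions gave 10 Watson-Crick pairs, 1 G-U pair and 2 mismatches.

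Depth was 1214217 and 730583 reads in the Dbp7-HTP libraries and 159127 and 467529 in the WT libraries, of which the totals of the first replicates were estimated. Coverage is given in RPM, that is reads scaled to 1000000 mapped reads, and as a share of all 25S coverage of the same library, which needs no total. The lowest covered nucleotide had 409 and 175 reads in the Dbp7-HTP libraries and 20 and 19 reads in the WT libraries. Every nucleotide was therefore covered in every library. The highest WT values had 2803 and 1185 reads.

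WT replicate 1 stood apart from the other 3 libraries, and the results are given with and without it. Its coverage was more than 4-fold that of WT replicate 2 (log2 ratio above 2) at 118 of the 305 nucleotides, all between nucleotides 3040 and 3272. These were all 36 nucleotides of the 5′ part of the expansion, 21 of 36 in its middle part, 8 of 35 in its 3′ part, 49 of 56 in helix 96, 3 in helix 95 and 1 in helix 98. At nucleotide 3185, WT replicate 1 exceeded WT replicate 2 by 5.01 on the log2 scale. Outside the expansion, the mean coverage of the WT libraries was 680 and 574 RPM.

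In share of 25S coverage, the libraries of the strains overlapped for the stretch as a whole but not for its nucleotides outside the expansion. It held 20.3% and 26.6% of 25S coverage in the Dbp7-HTP libraries and 28.2% and 8.65% in the WT libraries, on 8.98% of the length of 25S. The WT libraries thus lay on both sides of those of Dbp7-HTP. The means were 23.4% ± 4.45 for Dbp7-HTP and 18.4% ± 13.8 for WT (SD, n = 2 each), and the difference of 4.97 percentage points was within the spread of the WT libraries (p = 1 in an exact two-sided permutation test). Without WT replicate 1 the difference was 14.8 points, and without WT replicate 2 it was -4.81 points. As a share of all 35S coverage, the stretch held 17.4% and 22.8% in the Dbp7-HTP libraries and 17.0% and 4.31% in the WT libraries, with no overlap (p = 0.333 in the exact permutation test).

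Leaving out the expansion, the share was 16.4% and 22.1% in the Dbp7-HTP libraries and 4.57% and 5.71% in the WT libraries. The 25S total that it is divided by still holds the expansion. With 23.6% of its 25S coverage there, WT replicate 1 has a lower share in all other parts of 25S. All 4 libraries now fell by strain, with means of 19.3% ± 4.04 for Dbp7-HTP and 5.14% ± 0.807 for WT (SD, n = 2 each). The difference of 14.1 points exceeded the spread of both strains, and its p of 0.333 in the exact two-sided permutation test is the lowest that 2 libraries against 2 can reach. The expansion alone took 3.85% and 4.44% in Dbp7-HTP cells, against 23.6% and 2.95% in WT. Per nucleotide, the stretch without the expansion had 3.21 and 4.70 times the mean coverage of the rest of 25S with Dbp7-HTP, against 0.993 and 0.975 times in WT. In WT cells the mean coverage of these nucleotides was therefore close to that of the rest of 25S, which leaves out the expansion.

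**Figure D1:**
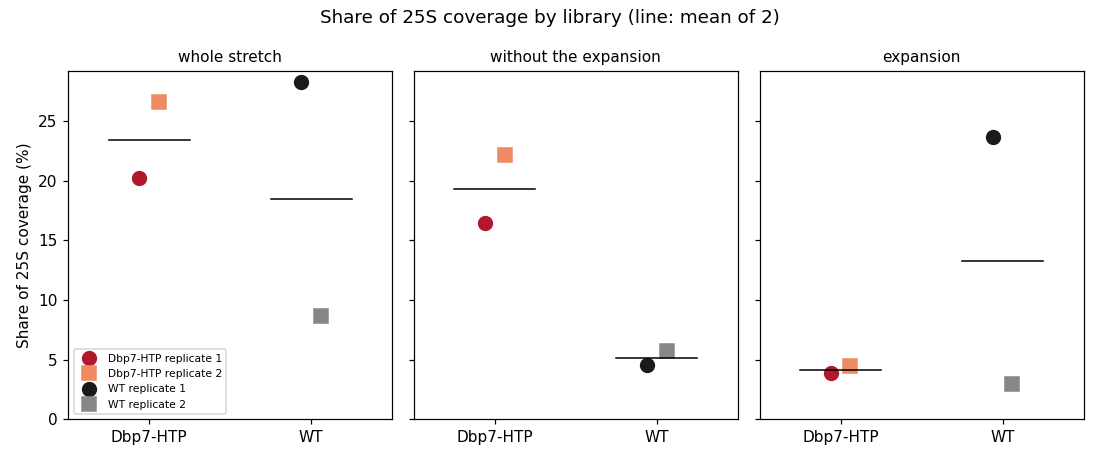
Share of 25S coverage (y axis, in %) taken by the whole stretch, by the stretch without the expansion and by the expansion, in 2 Dbp7-HTP and 2 WT libraries (points; the line is the mean). WT replicate 1 has 23.6% in the expansion and WT replicate 2 has 2.95%, whereas without the expansion the Dbp7-HTP libraries lie at 16.4% and 22.1% and the WT libraries at 4.57% and 5.71%.

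In RPM, mean coverage of the stretch was 4581 and 5816 in the Dbp7-HTP libraries and 2729 and 565 in the WT libraries, a log2 difference of 2.05 after adding 1 RPM (p = 0.333 in the exact permutation test). Without the expansion it was 5716 and 7462 RPM in Dbp7-HTP cells, against 680 and 574 RPM in WT, a log2 difference of 3.38 with SDs of 0.27 for Dbp7-HTP and 0.17 for WT. RPM contain the larger rRNA share of the Dbp7-HTP libraries, and the rest of 25S was itself at 1780 and 1587 RPM in Dbp7-HTP cells, against 685 and 588 RPM in WT.

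Each nucleotide of the 35S pre-rRNA with a mean of at least 10 RPM was then compared between the strains with limma. Of the 305 nucleotides, 132 were higher and 0 lower with Dbp7-HTP at a Benjamini-Hochberg adjusted p below 0.05, that is 43.3% higher. Over all 6603 nucleotides tested, 15.4% were higher and 13.6% lower. At an unadjusted p below 0.05, 151 were higher and 0 lower. Nucleotides outside the stretch were not counted at this cut, so these counts have no background. The called nucleotides formed 4 stretches, from 2996 to 3027, 3030 to 3034, 3105 to 3171 and 3273 to 3300. None lay in helix 96, and 6 of 107 in the expansion were called, all in its 3′ part. Adjacent nucleotides share reads, and these counts are not counts of independent sites.

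The number of calls depended on the libraries. Without WT replicate 1, 305 of 305 nucleotides were higher, including all 107 of the expansion, against 31.9% of all nucleotides tested in that fit. Without WT replicate 2, 123 (40.3%) were higher and 38 (12.5%) lower, against 21.5% and 24% of all nucleotides, and the 38 lower ones were in the expansion. Without Dbp7-HTP replicate 1, 78 (25.6%) were higher against 5.21% of all, and without Dbp7-HTP replicate 2, 51 (16.7%) were higher against 4.39%. In each of these fits the single remaining library was taken to vary like the other strain.

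On the scale of 25S shares, which removes the difference in rRNA content, limma called 0 nucleotides higher and 0 lower, and the background over the 3396 nucleotides of 25S was likewise 0% and 0%. At an unadjusted p below 0.05, 78 of the 305 were higher and 0 lower, and with a replicate block 77 were higher and 20 lower. The rest of 25S was not counted at this cut, so these counts have no background. When limma's prior was fitted with an intensity trend, 28 were called higher, which is 9.18% against 4.27% of all 25S nucleotides. Without WT replicate 1, 64 (21.0%) were called higher against 12% of all. Without WT replicate 2, 57 (18.7%) were called higher and 118 (38.7%) lower, against 13.1% and 9.89% of all. Both Dbp7-HTP libraries exceeded both WT libraries at 114 of the 305 nucleotides, or 37.4%, of which 110 were among the 198 outside the expansion, against 22.6% over all of 25S. Both were below both WT libraries at 48, all in the expansion, against 43% over all of 25S. The nucleotide with the largest difference on either scale was U3153 in the linker. It had 20946 and 22622 RPM in the Dbp7-HTP libraries and 899 and 1300.4 RPM in the WT libraries, a log2 difference of 4.33 in RPM (SE 0.46, limma adjusted p = 0.00459) and of 2.84 in 25S share (SE 0.49, limma adjusted p = 0.0686).

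**Figure D2:**
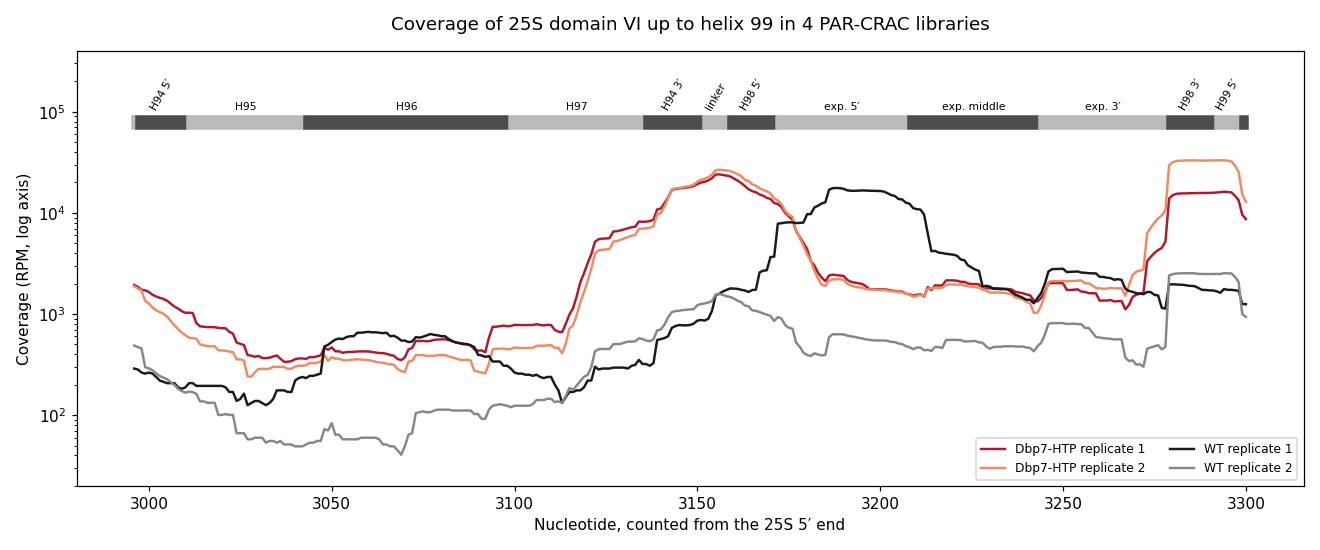
Coverage in RPM (y axis, log scale) at each of the 305 nucleotides (x axis, nucleotide counted from the 25S 5′ end) in the 4 libraries, with the structural elements as bars above. Both Dbp7-HTP lines reach their maxima at the linker and at the 3′ strand of helix 98 with helix 99, the WT replicate 1 line is highest in the 5′ part of the expansion, and the WT replicate 2 line follows the shape of the Dbp7-HTP lines at a lower level outside the expansion.

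Of the 12 elements longer than 2 nucleotides, 8 had a higher mean RPM in both Dbp7-HTP libraries than in both WT libraries, and 7 did so in 25S share. The other 4 were helix 96 and the 3 parts of the expansion, and helix 95 overlapped only in 25S share. For each element with no overlap, the exact permutation p is 0.333, so the elements are described by size. The rest of 25S did not overlap in RPM either, with 1780 and 1587 RPM in Dbp7-HTP cells against 685 and 588 in WT. In 25S share, both Dbp7-HTP libraries exceeded both WT libraries at 22.6% of all 25S nucleotides. Elements elsewhere in 25S were not compared, so these counts have no background of their own.

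The 2 strands of helix 94 differed from each other. Its 5′ strand had 1421 and 1069 RPM in the Dbp7-HTP libraries and 227 and 264 RPM in the WT libraries, a log2 difference of 2.33. Its 3′ strand, which leads into the linker, had 14762 and 14623 RPM in Dbp7-HTP cells, against 649 and 928 RPM in WT, a log2 difference of 4.24. In share of 25S coverage the differences were 0.84 for the 5′ strand and 2.75 for the 3′ strand. Coverage was thus far higher on the 3′ strand than on the 5′ strand in both Dbp7-HTP libraries, and less so in the WT libraries.

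Helix 95, the hairpin with the sarcin-ricin loop, was, together with helix 96, the least covered element in Dbp7-HTP cells. It had 547 and 374 RPM in Dbp7-HTP cells and 174 and 85.9 RPM in WT, a log2 difference of 1.88 that was 0.39 in 25S share, where the strains overlapped (0.254% and 0.179% of 25S coverage with Dbp7-HTP, 0.189% and 0.138% in WT). The lowest coverage of Dbp7-HTP replicate 2 was at nucleotide 3028, with 240 RPM, and that of WT replicate 1 at nucleotide 3027, with 126 RPM, both within the GAGA motif at 3026 to 3029. Dbp7-HTP replicate 1 was lowest at nucleotide 3037, on the 3′ side of the hairpin, with 337 RPM. WT replicate 2 was lowest outside helix 95, at nucleotide 3069 in helix 96, with 40.6 RPM from 19 reads.

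Helix 96 did not separate the strains, with 483 and 353 RPM in the Dbp7-HTP libraries and 515 and 82.8 RPM in the WT libraries. The log2 difference was -0.09 between the libraries numbered 1 and 2.08 between those numbered 2. In 25S share, WT replicate 1 had the highest value, 0.978%, against 0.392% and 0.296% in Dbp7-HTP cells and 0.233% in WT replicate 2.

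Helix 97, the last hairpin enclosed by helix 94, marked the start of the main rise of coverage. It had 3231 and 2495 RPM in Dbp7-HTP cells and 249 and 290 RPM in WT, a log2 difference of 3.40 in RPM and 1.91 in 25S share. Its median over nucleotides gave a log2 difference of 2.44 in RPM, and coverage climbed along the hairpin towards helix 94. Of its 37 nucleotides, 31 were called higher in RPM.

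The linker had the highest mean of any element in Dbp7-HTP replicate 1, and all 7 of its nucleotides were called higher in RPM. Its coverage was 22615 and 24872 RPM in the Dbp7-HTP libraries and 1337 and 1442 RPM in the WT libraries. The log2 differences between same-numbered libraries were 4.08 and 4.11, the closest of all elements. In share of 25S coverage the 7 nucleotides took 2.30% and 2.61% in Dbp7-HTP cells, against 0.317% and 0.507% in WT.

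The 5′ strand of helix 98, next to the linker, held 3.24% and 3.86% of 25S coverage in Dbp7-HTP cells, against 0.991% and 0.753% in WT. The 3′ strand, beyond the expansion, held 2.92% and 6.33% in Dbp7-HTP cells, against 0.819% and 1.63% in WT. The 5′ strand of helix 99 held 1.57% and 3.28% in Dbp7-HTP libraries, against 0.405% and 0.852% in WT libraries. The Dbp7-HTP libraries were nearly equal on the 5′ strand of helix 98, but Dbp7-HTP replicate 2 exceeded replicate 1 by more than 2-fold on the 3′ strand and on helix 99, where the median log2 ratio of replicate 1 to replicate 2 was -1.07 and -1.03.

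Coverage rose into the 3′ block and fell at its end at the same nucleotides in all 4 libraries, but these borders were not equally sharp. From nucleotide 3278, the last of the expansion, to nucleotide 3279, the first of the 3′ strand of helix 98, coverage changed 2.66-fold and 2.75-fold in the Dbp7-HTP libraries and 1.73-fold and 5.07-fold in the WT libraries. From nucleotide 3298 to 3299 it dropped to 0.718 and 0.595 of the previous value in Dbp7-HTP cells and to 0.738 and 0.480 in WT. In the Dbp7-HTP libraries the fall went on beyond the block, with 7600 and 10037 RPM at nucleotide 3302. The step into the block was the largest single-nucleotide rise in RPM of both Dbp7-HTP libraries and of WT replicate 2. In WT replicate 2 it rested on 222 and 1125 reads, and in WT replicate 1 on 180 and 312 reads. In WT replicate 1 the largest rise was instead from nucleotide 3185 to 3186 within the expansion, at 12738 and 16930 RPM. As a fold this was 1.33, within the range of 1.12-fold to 1.49-fold of the other libraries at that step. WT replicate 1 also rose from 3689 RPM at nucleotide 3171 to 7837 RPM at nucleotide 3172. Dbp7-HTP replicate 2 rose from 2765 RPM at nucleotide 3272 to 6309 RPM at nucleotide 3273, before the block.

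From 5′ to 3′, the 3 parts of the expansion had 3602, 1789 and 2039 RPM in the first Dbp7-HTP library and 3568, 1650 and 3103 RPM in the second. They had 13487, 3811 and 2140 RPM in the first WT library and 565, 489 and 591 RPM in the second. Dbp7-HTP was thus above WT replicate 2 in each part and below WT replicate 1 in each of the first 2 parts, and in the 3′ part WT replicate 1 lay between the Dbp7-HTP libraries. The log2 differences between the libraries numbered 1 were -1.90, -1.09 and -0.07, and those between the libraries numbered 2 were 2.66, 1.75 and 2.39.

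**Figure D3:**
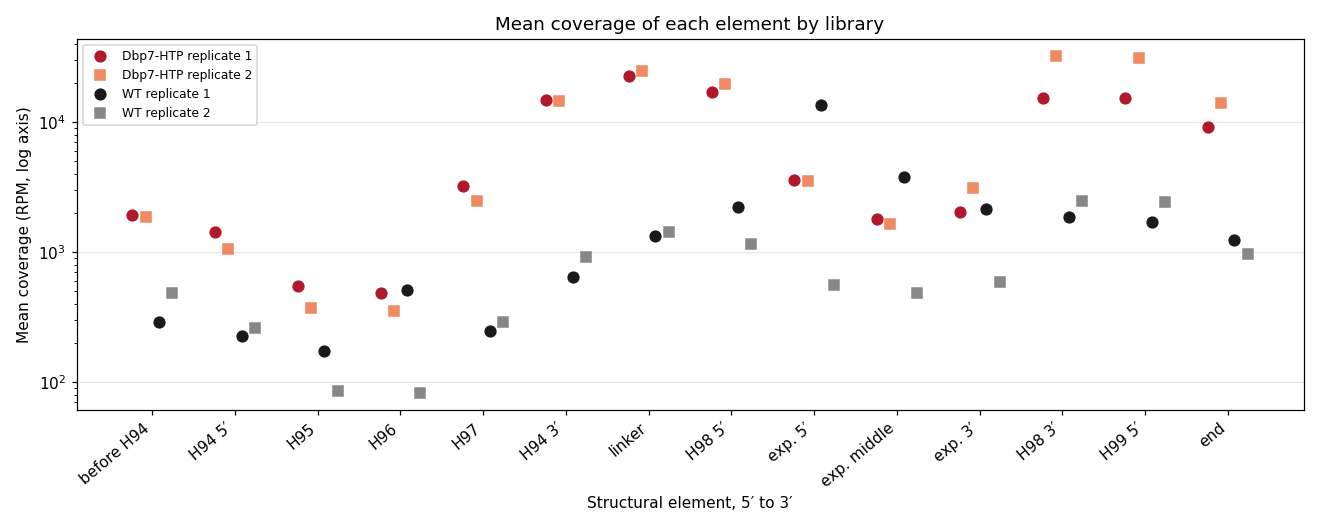
Mean coverage in RPM (y axis, log scale) of each structural element in 5′ to 3′ order (x axis; H, helix; exp., expansion) in the 2 Dbp7-HTP and 2 WT libraries. The strains are apart in helix 97, the 3′ strand of helix 94, the linker, both strands of helix 98 and helix 99, and WT replicate 1 is highest in the first 2 parts of the expansion.

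The shape of the WT replicate 2 profile was close to that of Dbp7-HTP outside the expansion. Across these 198 nucleotides, the coverage of Dbp7-HTP replicate 2 had a Pearson correlation of 0.984 with WT replicate 2, against 0.922 with Dbp7-HTP replicate 1 and 0.809 with WT replicate 1. Across the 3091 other nucleotides of 25S it was 0.272 with WT replicate 2, 0.983 with Dbp7-HTP replicate 1 and 0.439 with WT replicate 1. The WT libraries had a correlation of 0.773 with each other across the 198 nucleotides. These are descriptions over nucleotides that share reads and sequence, and they carry no test. WT replicate 2 had 5.80% of the RPM of Dbp7-HTP replicate 2 on the linker, 5.81% and 7.68% on the strands of helix 98 and 7.74% on helix 99, against 37.1% over the rest of 25S. Whether the libraries numbered 2 share reads was not tested.

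Substitutions are read in this method as marks of cross-linked uridines, but they were also present in WT cells, which have no bait. They were recorded only at uridines, while deletions were 0 throughout. The stretch had 58115 and 49093 substitutions in Dbp7-HTP cells and 4316 and 2845 in WT. As a share of all 25S substitutions this was 22.3% and 29.8% in Dbp7-HTP cells, against 28.2% and 9.92% in WT (p = 0.667 in the exact permutation test). Without the expansion, and relative to the same 25S total, it was 19.9% and 27.2% in Dbp7-HTP cells, against 4.53% and 7.22% in WT. The substitutions per 100 covered uridines were 11.0 and 11.7 in Dbp7-HTP cells and 13.4 and 11.9 in WT, and in the rest of 25S they were 11.1 and 11.2 in the Dbp7-HTP libraries against 12.2 and 11.6 in the WT libraries. These rates were similar inside and outside the stretch.

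The substitutions were concentrated on few uridines. The 5 most substituted held 72.7% and 76.2% of those in the stretch with Dbp7-HTP, and 64.8% and 57.6% in WT. With Dbp7-HTP they were U3156, U3293, U3153 and U3155 in both libraries, with U3157 as the fifth in replicate 1 and U3297 in replicate 2. In WT replicate 1 they were U3198, U3185, U3195 and U3196 in the 5′ part of the expansion and U3269 in its 3′ part, none of them among those of Dbp7-HTP. In WT replicate 2, 4 of the 5 were also among the 5 of Dbp7-HTP replicate 2. The linker held 48.4% and 38.5% of the substitutions of the stretch in Dbp7-HTP cells, against 2.02% and 21.3% in WT, and helix 99 held 29.8% and 43.0% in Dbp7-HTP cells, against 2.43% and 34.5% in WT. The 5′ part of the expansion held 3.62% and 2.67% in Dbp7-HTP cells, against 67.3% and 9.60% in WT.

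Of the 83 uridines, 79 had a mean of at least 10 substitution RPM and were tested with edgeR on the counts. With Dbp7-HTP, 18 were higher and 0 lower at an adjusted p below 0.05, which is 22.8% higher, against 14.5% higher and 10.8% lower over the 1306 uridines of the 35S pre-rRNA that were tested. At an unadjusted p below 0.05, 30 were higher and 2 lower. Uridines outside the stretch were not counted at this cut, so these counts have no background. All 5 uridines of the linker and both of helix 99 were called. The others were U2996, U2998 and U3010 around the 5′ strand of helix 94, U3042 in helix 95, U3047, U3090 and U3095 in helix 96, U3107 and U3135 in helix 97, and U3282 and U3287 in the 3′ strand of helix 98. At U2998, U3010, U3042 and U3090 the WT values alone had a mean below 10 substitution RPM. These uridines passed the filter only through their Dbp7-HTP values, so their calls lend no separate support. None of the uridines of the expansion was called.

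The calls depended on single libraries. Without Dbp7-HTP replicate 1, 1 uridine was called higher (1.27%), and without Dbp7-HTP replicate 2, 1 was, against 0.842% and 1.53% of all uridines tested. Without WT replicate 1, 54 (68.4%) were higher against 33.6% of all. Without WT replicate 2, 19 (24.1%) were higher and 13 (16.5%) lower, which is near the 19.5% and 18.9% of all uridines. Relative to all 25S substitutions, 3 of 83 were higher, U3152, U3157 and U3287, a share no larger than the 4.1% called over the uridines of 25S. On this scale, 11 were higher and 11 lower at an unadjusted p below 0.05, again with no background. The median log2 ratio was -0.24 in the stretch and -0.50 over the uridines of 25S.

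**Figure D4:**
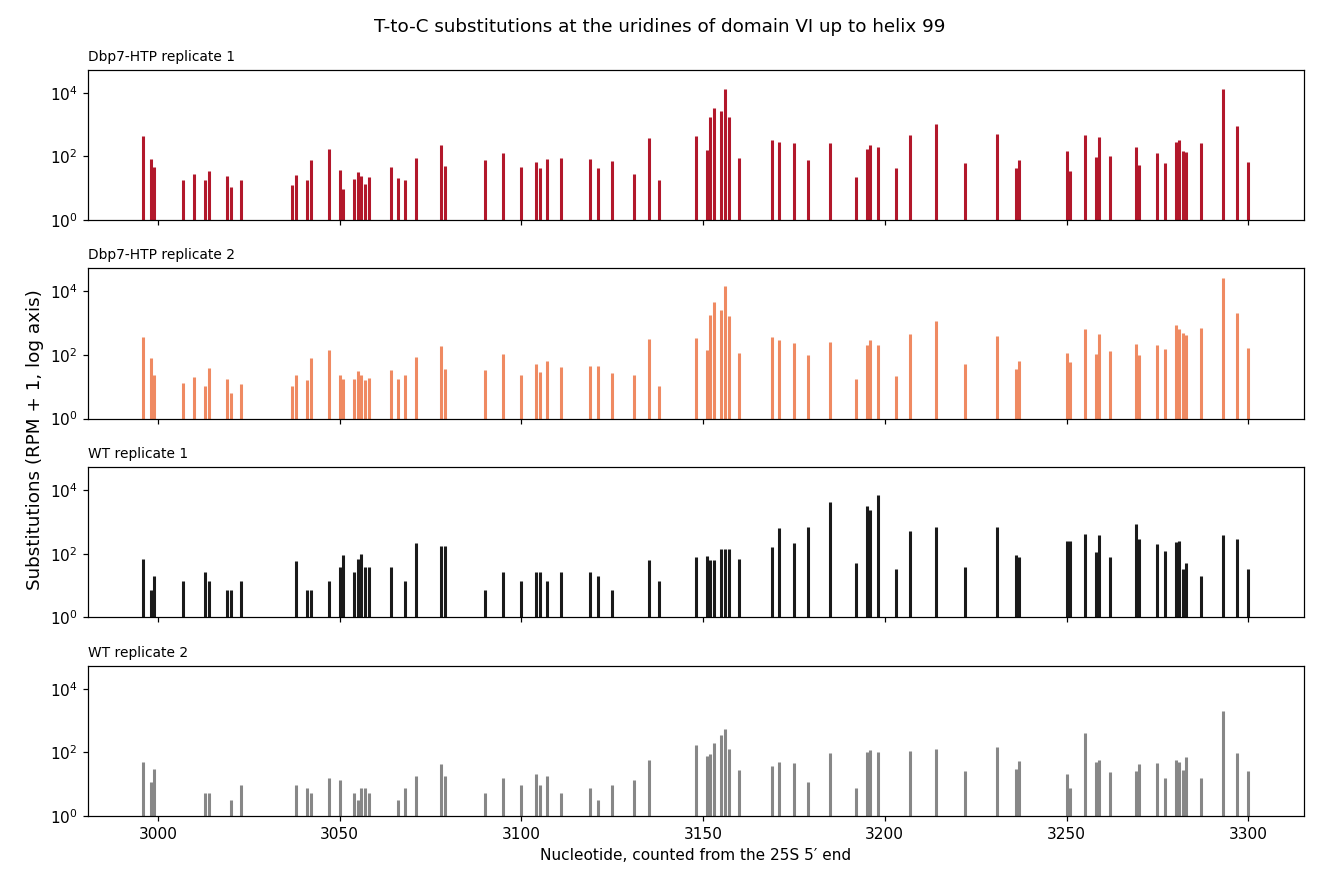
Substitutions in RPM plus 1 (y axis, log scale) at each uridine of the stretch (x axis, nucleotide counted from the 25S 5′ end), with 1 panel for each Dbp7-HTP library and 1 for each WT library. Both Dbp7-HTP panels peak at the linker and at U3293, the WT replicate 1 panel between U3185 and U3198 in the expansion, and the WT replicate 2 panel at U3293.

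In the linker, whose sequence is given above, the uridines differed in how often they were substituted. U3152 had 1773 and 1868 substitution RPM in Dbp7-HTP cells and 62.8 and 87.7 in WT (edgeR log2 ratio 4.57, adjusted p = 0.0134). U3153 had 3437 and 4599 in Dbp7-HTP cells and 62.8 and 199 in WT (edgeR log2 ratio 4.90, adjusted p = 0.0134). The strains did not overlap at either.

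U3155 had 2593 and 2536 substitution RPM in Dbp7-HTP cells and 138 and 351 in WT (edgeR log2 ratio 3.37, adjusted p = 0.0196). U3156, the most substituted of the run, had an edgeR log2 ratio of 5.38 (adjusted p = 0.0134), and its WT counts were 23 substitutions in 253 reads and 251 in 738. U3157 had 1780 and 1718 in Dbp7-HTP cells and 138 and 124 in WT (edgeR log2 ratio 3.74, adjusted p = 0.0134). The share of covering reads with a substitution ran along the linker from U3152 to U3157 as 8.73%, 16.4%, 10.8%, 56.5% and 7.52% in the first Dbp7-HTP library and as 8.60%, 20.3%, 9.60%, 56.8% and 6.48% in the second. In the first WT library the same uridines had 7.30%, 6.99%, 9.05%, 9.09% and 8.27%, and in the second they had 6.90%, 15.3%, 22.5%, 34.0% and 8.02%. The Dbp7-HTP libraries and WT replicate 2 thus had their highest share at U3156, while WT replicate 1 was nearly flat.

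In helix 99, U3297 had 892 and 2141 substitution RPM in Dbp7-HTP cells and 283 and 92.0 in WT (edgeR log2 ratio 3.04, adjusted p = 0.0314). U3293 had 13392 and 26733 substitution RPM in Dbp7-HTP cells and 377 and 2008 in WT (edgeR log2 ratio 4.07, adjusted p = 0.0289). Its WT counts were 60 substitutions in 258 reads and 939 in 1163. The substituted share of its reads was 83.7% and 80.8% in Dbp7-HTP cells, against 23.3% and 80.7% in WT. In this share WT replicate 2 was thus nearly equal to Dbp7-HTP replicate 2, and only WT replicate 1 was far lower. In the 3′ strand of helix 98, where coverage was as high as at U3293, substitutions were few. The run of 4 uridines from U3280 to U3283 was substituted in 0.882% to 2.77% of the reads with Dbp7-HTP, against 1.10% to 12.8% in WT, where U3280 and U3281 had 11.5% and 12.8% in WT replicate 1. U3287 was substituted in 1.72% and 2.08% of the reads in Dbp7-HTP cells, against 1.04% and 0.60% in WT. U3287 had 270 and 684 substitution RPM in Dbp7-HTP cells, against 18.9 and 15.0 in WT, from 3 and 7 substitutions (edgeR log2 ratio 4.84, adjusted p = 0.0134).

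The 3′ strand of helix 94 showed the same combination of high coverage and few substitutions. It holds 3 uridines, of which 2 were tested and 0 called. U3148 had 444 and 331 substitution RPM in Dbp7-HTP cells and 75.4 and 165 in WT (edgeR adjusted p = 0.073), and was substituted in 2.46% and 1.79% of the reads in Dbp7-HTP cells, against 9.68% and 14.8% in WT. At U3151, next to the linker, it was 0.789% and 0.690% in Dbp7-HTP cells, against 9.35% and 6.13% in WT. At both uridines the substituted share was lower in both Dbp7-HTP libraries than in both WT libraries.

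The uridines called in helices 95 and 96 were substituted often in few reads. U3042, the last nucleotide of helix 95, had 75.8 and 76.7 substitution RPM in Dbp7-HTP cells and 6.28 and 4.28 in WT (edgeR log2 ratio 3.91, adjusted p = 0.0166), from 1 and 2 substitutions in WT. It was substituted in 20.8% and 24.9% of the reads with Dbp7-HTP. U3047, near the 5′ end of helix 96, had 167 and 138 substitution RPM in Dbp7-HTP cells and 12.6 and 15.0 in WT (edgeR log2 ratio 3.42, adjusted p = 0.0138), and 42.8% and 40.7% of its reads were substituted in Dbp7-HTP cells, against 4.88% and 26.9% in WT. Of the 15 uridines tested in helix 96, 3 passed, a share (20%) near the 14.5% over all uridines tested, and none of the 3 was called relative to 25S substitutions. U3078, the most substituted uridine of helix 96 with Dbp7-HTP, had 232 and 189 substitution RPM in Dbp7-HTP cells, against 170 and 42.8 in WT (edgeR adjusted p = 0.274).

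At the 5′ end of the stretch, U2996 had 430 and 372 substitution RPM in Dbp7-HTP cells and 69.1 and 49.2 in WT (edgeR log2 ratio 2.79, adjusted p = 0.0192). U3010, at the end of the 5′ strand of helix 94, had 33 and 14 substitutions in Dbp7-HTP cells and 0 and 0 in WT. Set against a floor of 3 substitutions over both WT libraries, it was at least 5.05-fold higher. It passed the filter only through its Dbp7-HTP values of 27.2 and 19.2 substitution RPM, so its call lends no support. In helix 97, U3135 had 370 and 318 substitution RPM in Dbp7-HTP cells and 62.8 and 57.8 in WT (edgeR log2 ratio 2.51, adjusted p = 0.0231).

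In the expansion, U3214 was the most substituted uridine with Dbp7-HTP. It was substituted in 61.3% and 64.0% of its reads in Dbp7-HTP cells (95% Wilson intervals 59.2 to 63.4% and 61.3 to 66.5%) against 16.7% and 30.2% in WT (95% Wilson intervals 14.1 to 19.8% and 24.3 to 36.9%). These intervals hold for counting alone, because PCR copies of 1 fragment may have been counted separately. Its 1057 and 1143 substitution RPM in Dbp7-HTP cells, against 698 and 130 in WT did not pass the test (edgeR adjusted p = 0.204). U3198, which held most substitutions of WT replicate 1 and was singled out after its values were seen, had 194 and 212 substitution RPM in Dbp7-HTP cells, against 6938 and 101 in WT, and 11.0% and 12.1% of its reads were substituted in Dbp7-HTP cells, against 42.0% and 18.3% in WT.

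Among the 47 uridines with at least 50 reads in every library, the substituted share of reads had no overlap between the strains at 32, with a higher share in Dbp7-HTP cells at 12 and a lower one at 20. This is 25.5% higher and 42.6% lower, against 27.5% higher and 31.2% lower over all such uridines of the 35S pre-rRNA. The median share was 4.68% and 4.55% in Dbp7-HTP cells and 9.09% and 7.17% in WT. Across these 47 uridines the shares correlated with a Pearson r of 0.993 between the Dbp7-HTP libraries. WT replicate 2 had correlations of 0.872 and 0.866 with the Dbp7-HTP libraries and of 0.422 with WT replicate 1, given as descriptions. Since every retained read carries at least 1 change, these shares are conditional on that filter and depend on the other uridines in the same reads.

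The ends of the stretch cut through continuous coverage. At its 5′ end, nucleotides 2994 and 2995, just outside, had 2488 and 2440.3 RPM in the first Dbp7-HTP library, 2015 and 1956 in the second, 402 and 402 in the first WT library and 509 and 501 in the second. Nucleotides 2996 and 2997, just inside, had 1936 and 1855 RPM in the first Dbp7-HTP library, 1879 and 1793 in the second, 289 and 283 in the first WT library and 488 and 471 in the second. At the 3′ end, coverage fell across the border in both Dbp7-HTP libraries, with 8682 RPM at nucleotide 3300 and 8082 at 3301 in replicate 1 and 12870 and 11253 in replicate 2, against 1251 and 1251 in WT replicate 1 and 939 and 913 in WT replicate 2.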

How the data were processed

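For each library, the authors mapped the reads with Bowtie2 (2.2.4), filtered for T-to-C changes and deposited the coverage signal and the count of substitutions at each nucleotide of 1 copy of the 35S pre-rRNA, neither normalized. The deposited RNA class values and snR190 profiles are scores, reads per 1000000 mapped, rounded by the authors to whole numbers; the release of the genome was not given in the sources used here. Read totals are stated for the second replicates. For the first replicates they were estimated from 35S coverage and the rRNA score, taking each rRNA read to give the summed coverage it gave in that strain's other library, 11.1 for Dbp7-HTP and 12.2 for WT. RPM of the first replicates carry this error, whereas shares of 25S coverage do not.

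Positions count from the 5′ end of 25S, and elements follow the mature secondary structure. The 4 spacer blocks repeat 1 nucleotide each, which was removed. Single values were compared by exact two-sided permutation tests. Coverage was tested per nucleotide with limma (3.58.1) on log2 values plus 1 in R (4.3.3), with a mean of at least 10. For substitutions, limma had been planned; because they are counts, edgeR's quasi-likelihood test (4.0.16) on library totals is the main test, and limma an alternative. Both were also run on simulated data with independent features, which cannot show the error rate where neighbouring nucleotides share reads. Adjustment was by Benjamini-Hochberg at 0.05 over all features tested. The p-values measure only the spread between these libraries, which may be technical. Other values used Python (3.11.15), numpy (2.4.6), scipy (1.17.1) and matplotlib (3.10.9). The stretch, its elements and the tests were chosen with earlier results of these data known.

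Named nucleotides were, in each element, those with the highest Dbp7-HTP coverage and substitutions, all uridines of the linker and the helix 99 strand, the WT maxima and the border nucleotides. Other nucleotides named were chosen after their values were seen: the other uridines called, the 5 most substituted per library, steps and minima. Replicates share numbers. The study describes independent experiments, but no source used here says that same-numbered libraries were prepared together, so the main fits have no block. Alternatives covered scaling, value added, filter, prior, summary, replicate block and each library left out. The snoRNA table was not used here.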

Additional observations from a re-analysis of the deposited data

How the results depend on the processing

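Of the comparisons of the whole stretch, the difference in share of 25S coverage ranged from -4.81 to 14.8 percentage points with 1 library left out, and that in share of 25S substitutions from -2.17 to 16.1 points. Both turned negative without WT replicate 2. Without the expansion the difference in substitution share was 17.7 points. The log2 difference in mean coverage was 0.92 to 3.19 with 1 library left out and 0.57 in share of 25S coverage. With 1 library left out, 51 to 305 nucleotides were higher and 0 to 38 lower in RPM, 0 to 64 higher and 0 to 118 lower in 25S share, and 1 to 54 uridines were higher and 0 to 13 lower. In 25S share, 28 nucleotides were higher with an intensity trend. With no filter, 32 of 83 uridines were higher and 5 lower, against 256 and 266 of the 1797 tested over the 35S pre-rRNA. Relative to 25S substitutions 3 of 83 were higher, against 35 of 853 over 25S. By limma on log2 values, an alternative added after the data were seen, 17 of 79 were higher, against 141 of 1306. Same-numbered libraries deviated together with correlations of 0.12 in RPM, -0.05 in 25S share and 0.04 in substitutions, and with only 2 pairs these values do not settle whether the numbers pair the libraries. With a replicate block, 168 of 305 nucleotides were higher in RPM, against 1388 of 6603 over the 35S pre-rRNA. In that fit 21 of 79 uridines were higher, against 201 of 1306. In 25S share 0 nucleotides were higher, and no other call of the stretch changed.

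Without WT replicate 2 and without WT replicate 1, the log2 difference was -0.32 and 2.30 in helix 96, -1.91 and 2.66 in the 5′ part of the expansion and -1.15 and 1.81 in its middle part. It was -0.48 in helix 96 and -1.11, -1.15 and -0.32 in the parts of the expansion in 25S share, -0.46 and -0.50 in the first parts in 35S share, and -0.45 in the 5′ part by the median. The difference in substituted share without WT replicate 2 and without WT replicate 1 was -2.91 and 10.9 points at U2996, 1.17 and -12.3 at U3155, 13.5 and -22.3 at U3255, -9.16 and 0.097 at U3280 and -9.83 and 2.71 at U3297. The causes were not tested. Coverage of as few as 19 WT reads limits the precision at helices 95 and 96.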
